A study of Rattus norvegicus with 6 samples.

Results

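Circular RNAs (circRNAs) are closed RNA loops formed when a downstream splice site is joined to an upstream one, and each is counted by the reads that cross that back-splice junction. The circRNAs of Ralgapa1 were taken as all rows of the table that name Ralgapa1 as host and are not antisense, which gave 16 of 11061 circRNAs. They were measured in spinal cords of Wistar rats aged 8 weeks: 3 libraries from rats whose cord was transected (SCI) and 3 from controls that underwent laminectomy, the removal of vertebral bone over the cord, but no cord injury (sham). No genetic change or drug is named for either group. The design text describes a complete transection, the series title can be read as an incomplete one, and how long after surgery the cords were taken is not stated in the labels. Nothing in the labels states that each library came from a different rat, so the spread given here is between libraries and may be technical. Ralgapa1 was brought forward by its own data: 1 of its junctions ranked 3 of 173 by p in a test for a changed share within the host. The Ralgapa1 values in SCI and sham libraries are therefore a description, with no test.

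Ralgapa1 encodes the alpha 1 catalytic subunit of the Ral GTPase-activating protein complex, which works as a heterodimer with the beta subunit encoded by Ralgapb. The complex speeds the hydrolysis of GTP by the small GTPases RalA and RalB and so returns them to the inactive state, while Ral exchange factors load them with GTP. Active Ral proteins bind effectors that include subunits of the exocyst, the tether that brings secretory vesicles to the plasma membrane, and Ral signalling is known for roles in membrane traffic and neurite growth in neurons. Back-splice reads measure circRNA and not the linear mRNA or the protein of this gene.

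Ralgapa1 was among the most-read circRNA hosts in these cords. Its 16 circRNAs held 680 reads, 440 in SCI and 240 in sham libraries, which placed it 4 among 4443 host genes by reads (median 6 reads per host) and 11 by number of circRNAs (median 1 per host). The junctions lay on chromosome 6, minus strand, between positions 85987840 and 86158414, a stretch of 170575 bases. The labels do not give the genome build behind the coordinates. No circRNA of another host overlapped this stretch. In the table's classes 14 were exonic and 2 were sense overlapping, meaning that they lie on the host's strand without following its annotated exons. A circBase identifier was given for 12 of the 16.

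**Figure D1:**
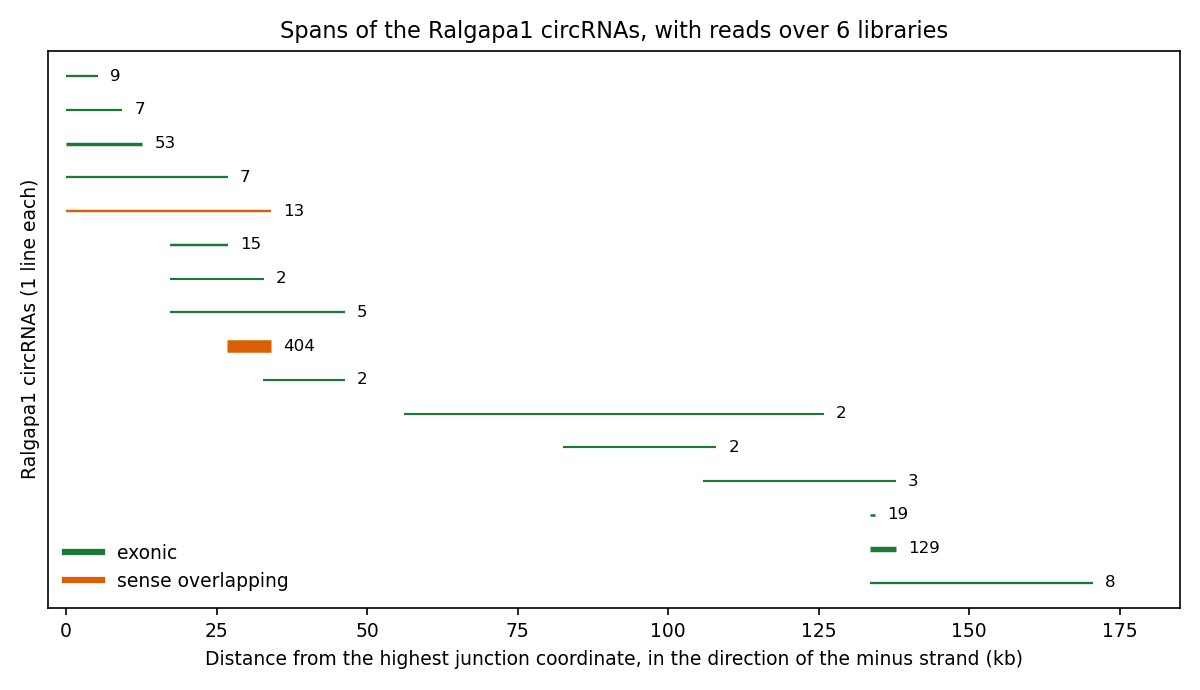
Each line is 1 of the 16 Ralgapa1 circRNAs, drawn to scale as distance in kb from the highest junction coordinate, with the reads over 6 libraries printed at its right end and line width rising with reads. Green lines are exonic and orange lines sense overlapping circRNAs. The thick orange line is the circRNA with 404 reads, and the line with 129 reads lies at the other end of the stretch.

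Reads were concentrated in 2 circRNAs that lie far apart in the gene. The most-read circRNA (86124405 to 86131751, spanning 7347 bases, sense overlapping, without a circBase identifier) had 404 reads, 59.4% of the host's. The second (86020613 to 86024909, spanning 4297 bases, exonic, predicted spliced length 934 bases, with a circBase identifier) had 129 reads, 19%. The facing ends of the pair were 99496 bases apart. Together they held 78.4% of the host's reads, and the other 14 circRNAs shared 147 reads.

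The summed level of Ralgapa1 circRNAs overlapped between the groups. In replicate order, the host sum was 157, 168 and 115 reads in the SCI libraries and 49, 101 and 90 in the sham libraries. As a percent of all back-splice reads of the library it was 0.739%, 0.806% and 0.587% in SCI and 0.421%, 1.03% and 0.707% in sham. Both the lowest and the highest value were in sham libraries, so the SCI values lay inside the sham range. The means were 0.710% ± 0.112 in SCI against 0.720% ± 0.305 in sham (SD, n = 3 each). Exact binomial 95% intervals did not meet for sham replicate 1 (0.312% to 0.557%) and sham replicate 2 (0.840% to 1.25%). These intervals cover counting error only and treat each read as a separate molecule. PCR copies of a molecule cannot be told from separate molecules in these reads, so the intervals may be too narrow.

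On the log2 scale of edgeR's fit to host sums, the difference of SCI from sham was 0.01 (SE 0.28), beside a median of 0.14 over the 647 hosts tested. It was 0.53 without sham replicate 2 and -0.17 without sham replicate 1. Of those 647 hosts, 2 passed at an adjusted p under 0.05 (0.309%), and 42 had an unadjusted p under 0.05. In bulk cord, fewer cells of a type and less RNA per cell cannot be told apart.

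**Figure D2:**
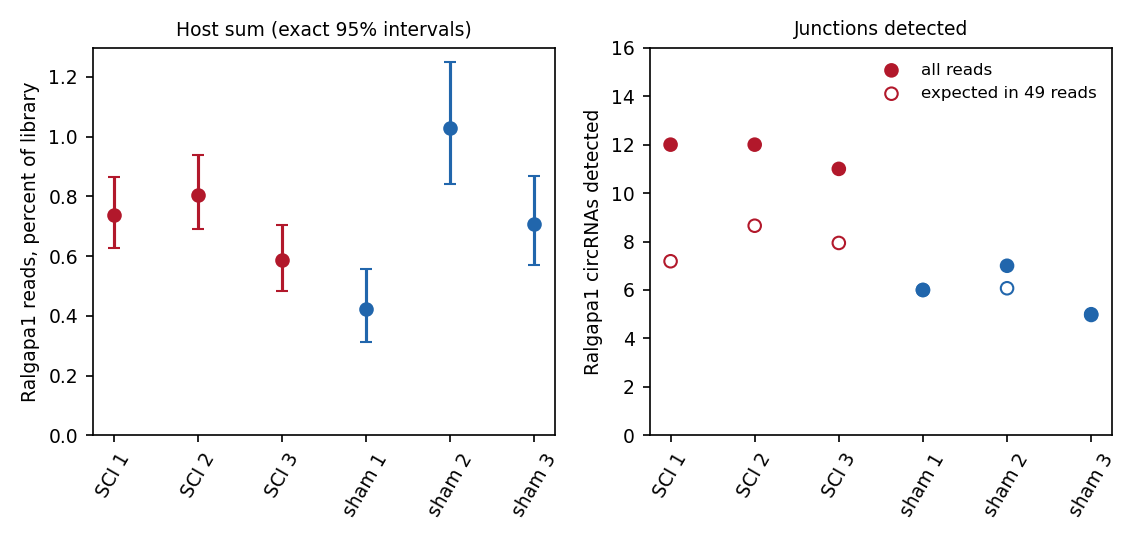
Left, Ralgapa1 reads as a percent of all back-splice reads in each library, with exact binomial 95% intervals. Right, Ralgapa1 circRNAs detected in each library from all reads (filled) and expected in 49 reads (open), where sham libraries held 5 to 7 and SCI libraries 11 or 12 from all reads.

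The second circRNA took a larger part of Ralgapa1 reads in each of the SCI libraries than in the sham libraries. The 4297-base circRNA was counted 42, 35 and 25 times in SCI replicates and 7, 9 and 11 times in sham. Its share of Ralgapa1 reads was 26.8%, 20.8% and 21.7% in SCI and 14.3%, 8.91% and 12.2% in sham. The mean shares were 23.1% ± 3.19 and 11.8% ± 2.71 (SD, n = 3 each), and the groups did not overlap. The exact 95% intervals of single libraries were wide, from 14.6% to 30.4% in SCI replicate 3 and from 5.94% to 27.2% in sham replicate 1, so neighbouring libraries of the groups overlapped within counting error.

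The same junction also stood apart as a percent of all back-splice reads of the library. It was 0.198%, 0.168% and 0.128% in SCI and 0.0602%, 0.0918% and 0.0865% in sham, again without overlap of the groups. Among the 484 circRNAs that passed the filter on low counts, 10.5% were higher and 4.75% lower in SCI without overlap in this way, while 1 (0.207%) passed edgeR's test at an adjusted p under 0.05. In the circRNA fit its log2 difference was 1.00 (SE 0.46), beside a median of 0.09 over the 484.

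The most-read circRNA took a smaller part of Ralgapa1 reads in SCI. The 7347-base circRNA was counted 92, 81 and 64 times in SCI replicates and 35, 70 and 62 times in sham. Its share was 58.6%, 48.2% and 55.7% in SCI and 71.4%, 69.3% and 68.9% in sham, with means of 54.2% ± 5.35 and 69.9% ± 1.36 (SD, n = 3 each). The groups did not overlap in this share. They did overlap in the percent of all back-splice reads, which was 0.433%, 0.389% and 0.326% in SCI and 0.301%, 0.714% and 0.487% in sham. Sham replicate 2 had the highest of these values and sham replicate 1 the lowest. The log2 difference in the circRNA fit was -0.42 (SE 0.29).

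**Figure D3:**
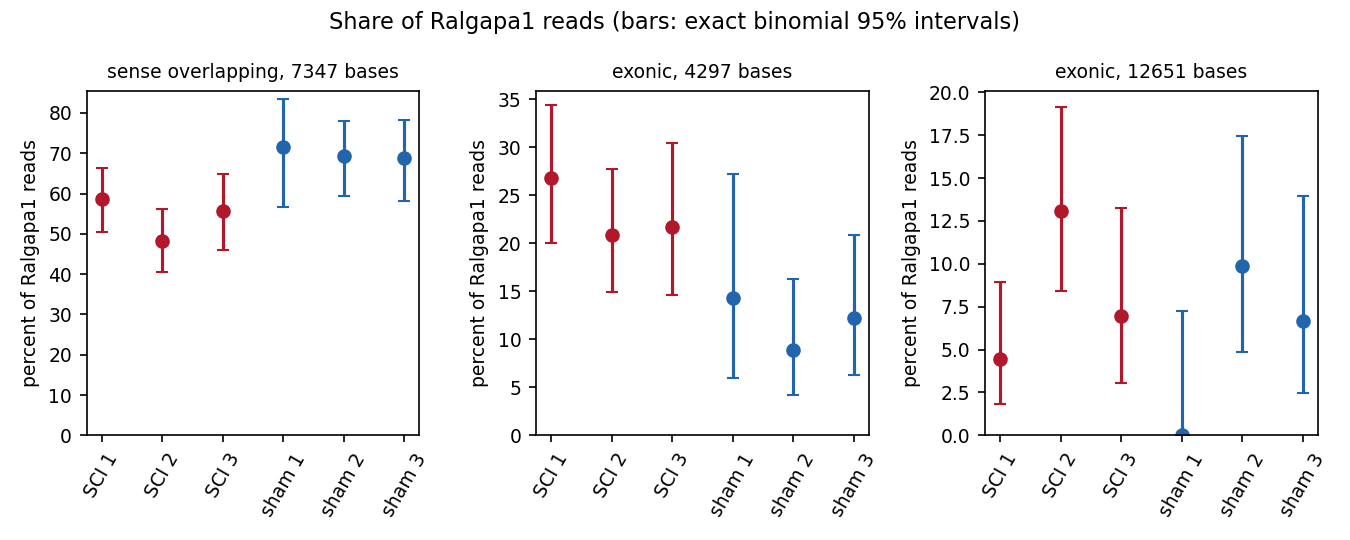
Share of Ralgapa1 reads held by the 3 most-read circRNAs in each library, with exact binomial 95% intervals (SCI red, sham blue). The 7347-base circRNA is lower and the 4297-base circRNA higher in all 3 SCI libraries, while the 12651-base circRNA overlaps between the groups.

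Set against each other, the second circRNA had 0.457, 0.432 and 0.391 reads per read of the most-read one in SCI and 0.200, 0.129 and 0.177 in sham. The means were 0.426 ± 0.0333 and 0.169 ± 0.0365 (SD, n = 3 each). As a percent of the pair's reads it held 29.9% ± 1.65 in SCI against 14.4% ± 2.70 in sham (SD, n = 3 each). This ratio does not depend on the host's level or the library's total. Shares within a host sum to 100%, so the differences in the shares of the pair are not independent of each other. The other 14 circRNAs took 22.7% ± 8.15 of the host's reads in SCI libraries and 18.3% ± 3.78 in the sham libraries (SD, n = 3 each), with overlap.

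The share test itself gave no call. In edgeR's diffSpliceDGE 0 of 173 circRNAs (0%) passed at an adjusted p under 0.05, and 2 had an unadjusted p under 0.05; no other tool was run for shares. In that fit the SCI minus sham difference in share, on the log2 scale, was 1.08 for the second circRNA and -0.33 for the most-read one. Of the 169 of these circRNAs with host reads in every library, 6.51% were higher in SCI without overlap of the groups and 5.92% were lower. Nothing is read from the pair's shares against that background, since the gene was picked from this contrast.

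Other measures moved with the groups beside these shares. The SCI libraries held 19603 to 21255 back-splice reads and the sham libraries 9805 to 12722. Of 4 endothelial marker hosts 2 had circRNAs, Flt1 and Tek, while Pecam1 and Cldn5 were at 0. Flt1 and Tek summed to 14 reads in SCI (0.0188% to 0.0288% of reads) and 27 in sham (0.0612% to 0.0946%). Flt1 was counted 2, 6 and 4 times in SCI replicates and 8, 1 and 10 times in sham. Tek was counted 2, 0 and 0 times in SCI replicates and 3, 5 and 0 times in sham. Neither host alone separated the groups. The part of library size and of endothelial RNA in the Ralgapa1 shares was not tested.

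Only 4 of the remaining 14 circRNAs reached 10 reads. The 12651-base exonic circRNA (86145764 to 86158414, predicted length 557 bases) was counted 7, 22 and 8 times in SCI replicates and 0, 10 and 6 times in sham. Its share of Ralgapa1 reads overlapped between the groups, at 8.17% ± 4.44 in SCI against 5.52% ± 5.05 in sham (SD, n = 3 each). The 0 of 49 reads in sham replicate 1 has an exact 95% upper limit of 7.25%, above the 4.46% in SCI replicate 1.

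The other 3 of these were sparser and uneven between libraries. The 862-base exonic circRNA (86024048 to 86024909) was counted 2, 4 and 7 times in SCI replicates and 0, 6 and 0 times in sham. The 9568-base exonic circRNA (86131512 to 86141079) was counted 1, 7 and 1 times in SCI replicates and 0, 0 and 6 times in sham. The 34010-base sense overlapping circRNA (86124405 to 86158414) was counted 2, 4 and 1 times in SCI replicates and 3, 3 and 0 times in sham. In each of them the groups overlapped, and at least 1 sham library had none.

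**Figure D4:**
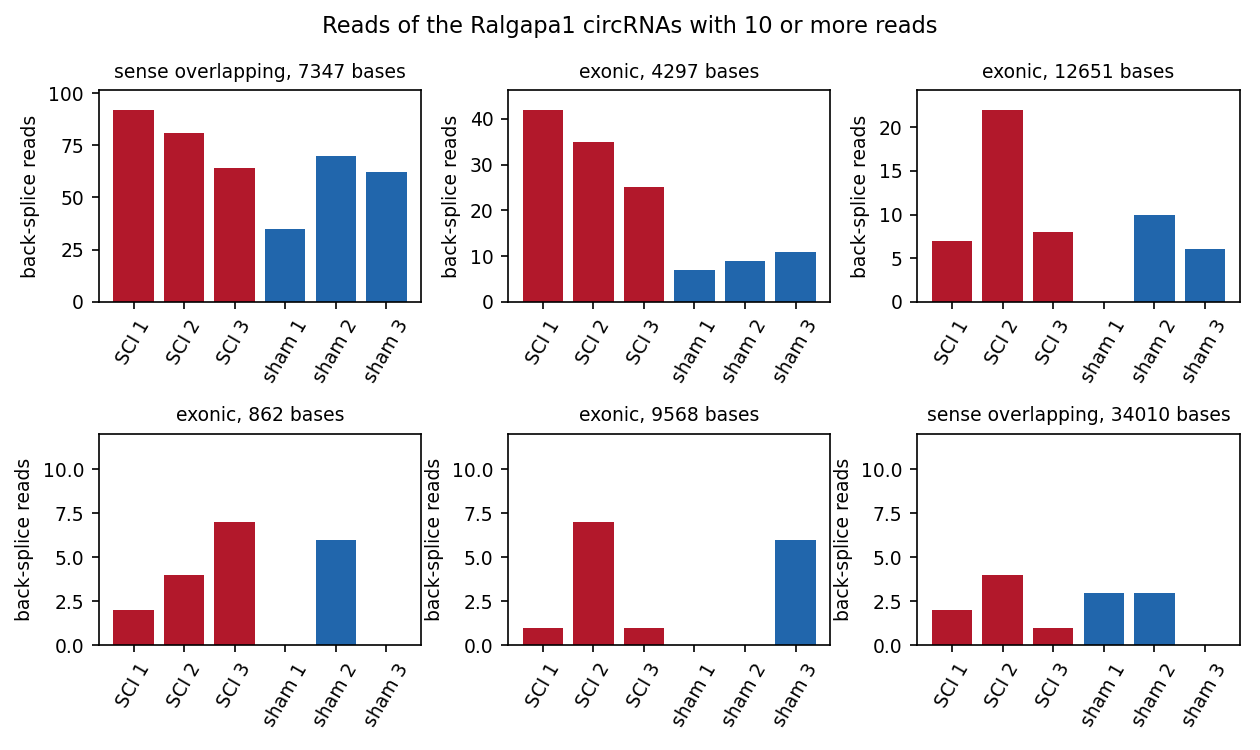
Back-splice reads per library of the 6 Ralgapa1 circRNAs with 10 or more reads (SCI red, sham blue), each panel with its own axis from 0. The 4297-base circRNA is the panel in which every SCI library, at 25 to 42 reads, lies above every sham library, at 7 to 11. These counts are not scaled to library totals, which were 19603 to 21255 reads in SCI and 9805 to 12722 in sham.

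The 10 circRNAs under 10 reads had 2 to 9 reads each and 47 in all, every one of them exonic. Across all 16, 2 were seen in all 6 libraries, 4 in 1 library, 6 in SCI libraries without a sham read (21 reads together) and 1 in sham without an SCI read. The circRNA from 86149110 to 86158414 was the 1 of these 6 that was present in each SCI library, with 1, 4 and 2 reads. With 7 reads in all, it lies near the limit of what these depths can count. SCI libraries also held more back-splice reads than sham libraries. Among the 4163 hosts with 59 reads or fewer, 37.0% had reads in SCI libraries only and 16.4% in sham only. The same shares over all circRNAs are not given, so nothing is read from the counts seen in 1 group only.

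More Ralgapa1 junctions were detected in SCI libraries. The numbers were 12, 12 and 11 in SCI and 6, 7 and 5 in sham, from more reads. Expected in an equal draw of 49 Ralgapa1 reads, the reads of sham replicate 1, they were 7.19, 8.65 and 7.94 in SCI and 6, 6.07 and 4.97 in sham. The groups did not overlap at equal reads either, with means of 7.93 ± 0.734 and 5.68 ± 0.617 (SD, n = 3 each). Each Ralgapa1 circRNA had at least 2 reads in all, and a junction is listed only if some library read it. The part of library size in these numbers was not tested. The same numbers for other hosts are not given, so nothing is read from the difference.

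Some Ralgapa1 junctions shared a splice position. On the minus strand the higher coordinate is the upstream side of the circle, where the acceptor site lies. The lower coordinate is the donor side. Rere and Ubn2 lie on the plus strand, where the sides are swapped. The 16 circRNAs of Ralgapa1 used 8 acceptor and 12 donor positions. The 23 of Rere used 10 and 9, and the 18 of Ubn2 used 6 and 9. Position 86158414 was the upstream side of 5 circRNAs with 89 reads, and positions 86024909 and 86141079 of 3 each, with 156 and 22 reads. On the donor side, 86020613, 86112081, 86124405 and 86131512 were each used by 2.

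Circles from 86024909 differed in how far downstream they reached. The 862-base circRNA has a predicted length equal to its span, so in the annotation used it is an uninterrupted stretch. The second most-read circRNA adds 72 predicted bases to it, and the circRNA that runs on to 85987840 (8 reads) adds 280 more, for 1214 bases. Of these 3, the middle one held 129 of 156 reads. Reads from this acceptor took 27.7% ± 2.33 of the host's in SCI against 14.8% ± 2.24 in sham (SD, n = 3 each), without overlap of the groups. Most of these reads are those of the second most-read circRNA, so this share is not separate from its own.

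Circles from 86158414 formed a ladder of the same kind. The 4 exonic ones ended at 86153110, 86149110, 86145764 and 86131512 with predicted lengths of 219, 441, 557 and 938 bases, and the step with 557 bases had the most reads, 53. Reads from this acceptor took 12.9% ± 5.82 of the host's in SCI against 12.4% ± 0.368 in sham (SD, n = 3 each), with overlap. In places the predicted lengths of separate circles add up to that of a longer one. The 938 bases of the circle from 86131512 to 86158414 equal 381 of the circle from 86131512 to 86141079 plus 557 of the circle from 86145764 to 86158414, while with the shorter circles from 86158414 the sums are 822 and 600. Likewise 333 and 381 bases add up to the 714 of the circle from 86112081 to 86141079. These lengths are predicted and not read from the circles, so the sums do not show which exons a circle holds.

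The most-read circRNA shared neither of its ends with an exonic circRNA. Its lower coordinate, 86124405, was shared only with the other sense overlapping circRNA, and the nearest lower coordinate of an exonic circRNA, 86125512, lay 1107 bases away. Its higher coordinate, 86131751, was used by no other Ralgapa1 circRNA and lay 239 bases above 86131512, the donor side of 2 exonic ones. Its predicted length equals its full span, but that holds for all 2845 sense overlapping circRNAs of the table and so says nothing of whether introns are retained in this circle. The exonic Ralgapa1 circRNAs had predicted lengths of 219 to 2741 bases, median 788, beside 646 over all exonic circRNAs of the table.

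The spans fell into 2 blocks that do not overlap, and the balance between the blocks followed the leading pair. The block from 85987840 to 86102310 held 6 circRNAs and 163 reads, and the block from 86112081 to 86158414, nearer the start of the transcript, held 10 circRNAs and 517 reads. The first took 30.6%, 25.6% and 32.2% of Ralgapa1 reads in SCI and 16.3%, 15.8% and 12.2% in sham. The means were 29.4% ± 3.43 and 14.8% ± 2.24 (SD, n = 3 each), without overlap of the groups. This split contains the leading pair, with 1 of its circRNAs on each side, and is not separate from it.

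Ralgapa1 was more dominated by its top circRNA than most hosts with many isoforms. Among the 89 hosts with 10 or more circRNAs, it had the most reads (median 91), and its top circRNA's 59.4% ranked 7 (median 27.7%). Rere, a transcriptional corepressor gene, had 23 circRNAs and 632 reads with 21.8% in its top circRNA. Ubn2, a histone chaperone complex gene, had 18 and 402 with 33.1%, and the ubiquitin ligase gene Hecw1 had 14 and 148 with 32.4%. In these 3 hosts the top circRNA was exonic and carried a circBase identifier, unlike that of Ralgapa1. Over all sense overlapping circRNAs 24.5% carried one, against 51.4% of exonic ones.

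The top circRNA's share in the groups is given for those hosts side by side. For Rere it was 23.7% ± 1.39 in SCI and 17.9% ± 11.2 in sham, and for Ubn2 29.5% ± 3.81 and 46.9% ± 24.2 (SD, n = 3 each), both with overlap of the groups. For Hecw1 it was 16.9% ± 10.1 and 58.5% ± 31.6 (SD, n = 3 each), without overlap. The SD for Ralgapa1 was 1.36 percentage points in sham, below those of all 3 hosts, and 5.35 in SCI, above those of Rere and Ubn2. The low sham SD cannot show a steadier share, since counting error in single libraries was wider. In sham replicate 1 the exact binomial interval of the Ralgapa1 share ran from 56.7% to 83.4%. Sham reads also differed, at 240 for Ralgapa1, 186 for Rere, 82 for Ubn2 and 59 for Hecw1.

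Other genes of the Ral pathway gave fewer circRNA reads than Ralgapa1. Of 36 listed genes other than Ralgapa1, 15 had a circRNA in the table, with 2 to 59 reads each, and 12 of these exceeded the median of 6 reads per host. Ralgapa2, the gene of the other catalytic subunit, was counted 1, 6 and 0 times in SCI replicates and 0, 0 and 4 times in sham. Ralgapb, the gene of the obligate beta subunit, was counted 13, 0 and 3 times in SCI replicates and never in sham, from 3 exonic circRNAs. The Ral GTPase genes Rala and Ralb had none. Of the 6 exchange factor genes, Ralgps2 alone had circRNAs, counted 11, 19 and 4 times in SCI replicates and 5, 3 and 6 times in sham.

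Among effectors and exocyst genes 8 of 11 had circRNAs. Exoc2, which encodes the Ral-binding exocyst subunit Sec5, was counted 9, 7 and 17 times in SCI replicates and 3, 6 and 2 times in sham. Reps1, an Eps15 homology domain gene of Ral-linked endocytosis, was counted 8, 4 and 10 times in SCI replicates and never in sham. Exoc6 had 16 reads in SCI and 8 in sham, Exoc4 had 5 and 8, and Reps2, a relative of Reps1, had 10 and 2.

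Genes with a related GAP domain and genes of the Akt pathway completed the list. Sipa1l1, a Rap GTPase-activating protein gene, was the most read after Ralgapa1, counted 12, 12 and 13 times in SCI replicates and 11, 5 and 6 times in sham. Akt2, a kinase gene upstream of mTORC1, had 4 reads in SCI and 3 in sham, and Akt1, Mtor, Rptor and Rheb were at 0.

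None of the Ral pathway hosts passed the test. In edgeR's quasi-likelihood test on host sums 3 had enough reads, 0 passed in either direction at an adjusted p under 0.05 over 647 hosts (background 0.309%), and 0 had an unadjusted p under 0.05. DESeq2 also called 0 of the 3, beside 0.618% of all hosts. The log2 differences were 0.71 (SE 0.83) for Exoc2, 0.44 (SE 0.78) for Ralgps2 and -0.07 (SE 0.61) for Sipa1l1, each with an adjusted p of 0.986 by edgeR. Their median was 0.44, beside 0.14 over all hosts tested.

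Summed over the 15 hosts, Ral pathway circRNAs other than those of Ralgapa1 took 0.376%, 0.278% and 0.321% of reads in SCI and 0.267%, 0.214% and 0.236% in sham. The groups did not overlap, though the lowest SCI and the highest sham value lay close together. How often other sums of sparse hosts separate in this way was not counted, so nothing is read from the gap. The 4163 hosts with 59 reads or fewer took 43.2%, 43.2% and 44.7% in SCI and 47.9%, 44.6% and 48.2% in sham. Of the 15 hosts 4 had reads in SCI libraries only and 2 in sham only, beside 37.0% and 16.4% of those 4163 hosts.

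**Figure D5:**
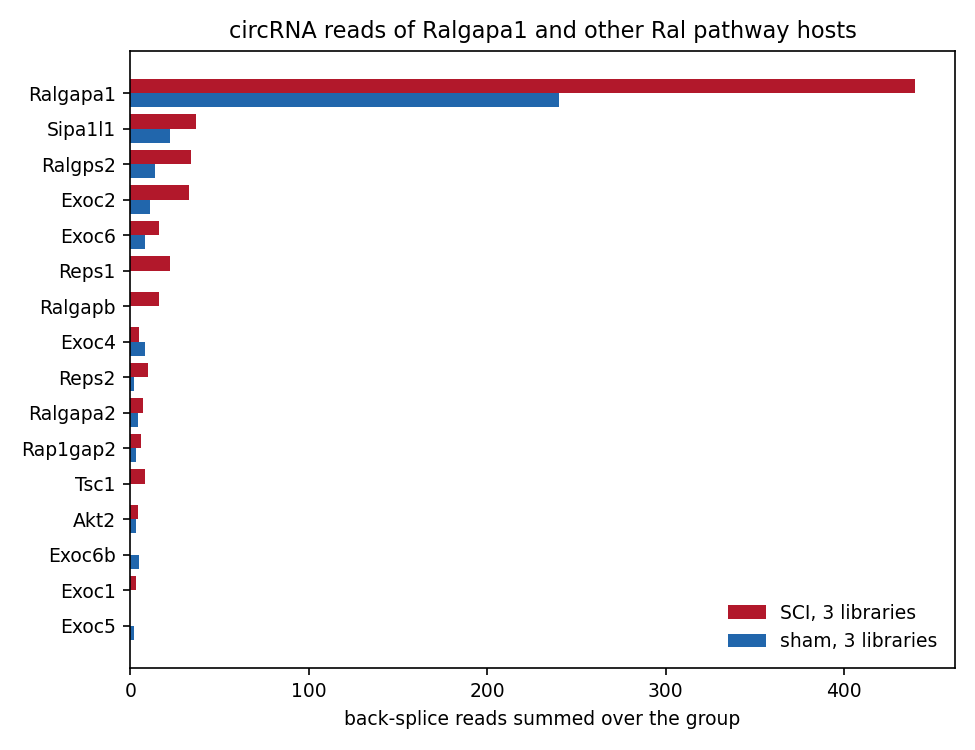
Back-splice reads summed over the 3 SCI (red) and 3 sham (blue) libraries for Ralgapa1 and the 15 other Ral pathway hosts with a circRNA. Ralgapa1, with 440 and 240 reads, has 11.5 times the reads of the next host, Sipa1l1.

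Across the 6 libraries, the host whose circRNA level ran most like that of Ralgapa1 was Mettl9, a histidine methyltransferase gene, with a Pearson r of 0.987 among 646 hosts on log2 CPM. It was counted 24, 25 and 19 times in SCI replicates and 9, 14 and 13 times in sham. Also near the top were the WAVE complex gene Nckap1 (0.964), the ubiquitin ligase gene Hace1 (0.945) and the host given as Mir107 (0.926). These values describe 6 points that share library totals and scaling, and the hosts named were picked from the top of a ranking.

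Circular reads of cord marker genes were sparse. Of the fixed markers, 5 of 7 oligodendrocyte hosts had circRNAs (0.168% to 0.212% of reads in SCI, 0.149% to 0.173% in sham), 6 of 8 neuron hosts (0.0188% to 0.0767% and 0.0258% to 0.0707%) and 4 of 6 astrocyte hosts (0.00480% to 0.0306% and 0% to 0.0612%). Motor neuron markers had 4 reads, all from Chat, and none of the 7 microglia and macrophage markers had any. The skeletal muscle host Ttn had 7 reads in SCI and 0 in sham.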

How the data were processed

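Per the labels' protocols, RNA was extracted with Trizol and libraries were made with an Illumina TruSeq RNA kit. Bowtie 0.12.2 and mm8, a mouse build, are named in the submitters' processing notes although the samples are rat; the circRNA caller and the table's build are not stated there. For each circRNA the authors deposited junction reads as whole-number counts and log2 CPM values made with edgeR, per the file headers. The log2 values were used only to check that 66366 of 66366 equal a TMM recomputation with a prior count of 0.25 within 1e-06. Predicted lengths, class, host and identifier are the authors'.

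Counts were summed per host without antisense circRNAs. Tests were edgeR's quasi-likelihood test (edgeR 4.0.16, R 4.3.3) on the counts, with TMM scaling, filterByExpr (minimum count 5, minimum total 15), no covariate beside group and Benjamini-Hochberg adjustment over all features tested. Shares were tested with diffSpliceDGE. Of the 16 Ralgapa1 circRNAs 3 passed the filter. SE is the log2 difference divided by the root of F. DESeq2 1.42.0 was an alternative, and intervals are exact binomial (SciPy 1.17.1). The scripts were tested on simulated counts. Libraries held 9805 to 21255 back-splice reads; total sequencing depth is not known. CircRNAs with 10 or more reads are given by library, and other hosts by the Ral pathway list, by likeness and as isoform-rich hosts. The members and lists were chosen with earlier results of these data known, and the block split and ratio of the leading pair after their values were seen. A few items that the naming rule or the lists took are not reported here and were left out of the list values.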

Additional observations from a re-analysis of the deposited data

How the results depend on the processing

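The Ralgapa1 shares kept their direction in every alternative run. Since the groups did not overlap, leaving out 1 library or pooling reads could not have reversed it. Those runs show only how far the size of the difference moved. The SCI minus sham difference in the share of the 4297-base circRNA was 11.3 percentage points, 13.4 over the 3 circRNAs that passed the filter, 11.9 with reads pooled and 9.48 to 12.5 with 1 library left out. For the 7347-base circRNA it was -15.7 (-17.9 to -12.7 with 1 library left out), for the 4297-base circRNA as a percent of the pair's reads 15.5 (14 to 16.6) and for the lower-coordinate block 14.7 (13.3 to 16.6); alternatives for these 3 were chosen after the data were seen.

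The log2 difference of the host sum, 0.01, had no stable sign: -0.08 with RLE size factors and with DESeq2, 0.07 with a replicate block, 0.36 without the filter, where the median of the tested hosts moved by 0.34, and -0.17 to 0.53 with 1 library left out, the highest without sham replicate 2. The replicate numbers share no stated source, and same-numbered libraries correlated at -0.01, 0.06 and 0.03 (deviations from group means across hosts), so they were not treated as pairs.

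The count of circRNA calls, 1, became 2 with DESeq2, 2 with the replicate block, 0 with edgeR without the filter (236 with an unadjusted p under 0.05) and 0 to 3 with 1 library left out (0 without sham replicate 1, 3 without sham replicate 3). The count of host calls, 2, became 1 with RLE size factors, 1 with the replicate block, 1 with antisense circRNAs added, 4 with DESeq2, 7 without the filter and 0 to 8 with 1 library left out (0 without SCI replicate 3 or sham replicate 1, 1 without SCI replicate 1 or sham replicate 2, 8 without sham replicate 3). The numbers tested differed between runs: 484 circRNAs and 647 hosts in the main run, and 11061 and 4443 without the filter. With 1 sham library left out they were 767 to 769 circRNAs and 926 to 969 hosts. The cause of the changes in calls was not tested. No share passed diffSpliceDGE in any alternative. In runs with the filter, 0 to 15 of the 158 to 311 circRNAs tested had an unadjusted p under 0.05. Without the filter 189 of 7962 did. Depth limits the 10 circRNAs with 2 to 9 reads, for which no level can be compared between groups.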
